A study of Sus scrofa with 15 samples.

Results

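The genes described here copy the DNA of a dividing cell and carry it through mitosis, and they were followed in pig granulosa cells over 7 days of culture. They were chosen by name: the single gene symbol of a probe set had to match a fixed set of names of replication and mitosis genes, among them the MCM, ORC, RFC and GINS families, PCNA, the cyclins A, B and E, the aurora kinases, the CENP genes and the numbered CDC and KIF genes. Of the 6765 genes with a symbol of their own on the array, 54 matched. By role, 24 of them belong to DNA replication, 1 (CCNA2) is the cyclin that acts in S phase and at the entry into mitosis, and 18 belong to mitosis. The other 11 are grouped apart: CDC23 and CDC26, core subunits of the anaphase-promoting complex, and 9 not placed in these classes. Among the 9 are CDC42, a small GTPase of the cytoskeleton, and 5 kinesins. Some of them, such as the kinesin KIF2A, may also act in cell division. MCM6, MCM7, CDK1, CCNE1 and CCNE2 were not analysed here.

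Before a cell copies its DNA, the origin recognition complex and the MCM helicase are loaded onto origins, and the CDC45 and GINS proteins switch the helicase on. The clamp PCNA, set on DNA by the RFC loader, then holds the polymerases, while ribonucleotide reductase and thymidylate synthase make the building blocks. Transcripts of most of these genes rise as cells enter S phase under the E2F factors, whereas those of cyclin B, the aurora and polo kinases and the proteins of kinetochore and spindle rise later, in G2 and mitosis. Granulosa cells of a growing follicle divide, and they stop dividing when they become luteal cells.

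Transcript levels had been measured in total RNA on Affymetrix porcine genome arrays, at 5 times with 3 arrays each, 15 in all. The day 0 group is granulosa cells from pig ovarian follicles, and the groups of days 1, 2 and 4 are such cells after that many days of culture, which the labels call dedifferentiating. The day 7 group is dedifferentiated cells, named DFOG, grown in culture to semiconfluence. The labels give no breed, age, follicle size, medium or serum, and although they call the 3 replicates biological, nothing says whether these came from separate animals or cultures, so a p-value measures the spread between these arrays only.

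All levels are log2 intensities, in which a difference of 1 is a doubling, and triplets of values are in the order of replicates 1, 2 and 3. A change is the difference of day means, given with its standard error (SE) and the Benjamini-Hochberg adjusted p of limma over all 23999 probe sets, with n = 3 arrays on each day. A gene is said to have risen or fallen when the adjusted p was under 0.05 and the change was at least 1 in size. Levels of different genes cannot be set against each other, because each probe set has its own response. In a bulk sample, fewer dividing cells and less RNA per dividing cell cannot be told apart.

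The labelled cell type was checked against its markers. The mean level of 12 granulosa markers lay between 9.63 and 9.81 in fresh cells and between 6.72 and 6.86 a week later, and 7 of them were lower on day 7, against 7.28% of all probe sets. INHA, the inhibin alpha subunit, read 14.37, 14.38 and 14.04 on day 0, while FOXL2 and CYP19A1 read 6.05, 5.78 and 5.85 and 5.61, 5.18 and 4.98. FSHR was higher on day 2 by 1.23 ± 0.42 (adjusted p = 0.0445), but its day means of 7.01, 5.68, 8.24, 7.03 and 6.11 were below fresh cells on days 1 and 7. Of other cell types, 1 of 5 macrophage, 3 of 8 endothelial, 2 of 4 theca, 1 of 5 oocyte, 0 of 7 lymphocyte and granulocyte and 0 of 3 red blood cell markers changed over the time course by limma. The share over all probe sets was 23.6%. Against fresh cells, the macrophage marker CD14 (1.67 ± 0.22), the endothelial ERG (3.43 ± 0.36) and PECAM1 (1.49 ± 0.21) and the theca marker TCF21 (1.34 ± 0.30) were higher on day 7, and the endothelial TIE1 (-2.40 ± 0.22), the theca INSL3 (-2.36 ± 0.23) and the oocyte GDF9 (-1.61 ± 0.15) were lower. The mean over each list lay between 4.28 and 4.96 on all arrays for macrophage, 4.95 and 5.45 for endothelial, 4.97 and 5.77 for theca, 4.68 and 5.59 for oocyte, 4.00 and 4.54 for lymphocyte and granulocyte and 5.81 and 6.61 for red blood cell markers, with a lower quartile of the arrays of 4.41 to 4.68. The part of such cells in the changes below was not tested. No member had a day 0 mean within or below that quartile, and only CENPT fell below it later, on day 2. The replicate 1 arrays stood apart on the third principal component (29.4 to 48.1, against -41.4 to -5.78 for the others), and day 4 replicate 2 had the largest 3′ minus 5′ difference of the actin control probe sets (2.12), a sign of shorter RNA or cDNA. The same difference was higher in fresh cells (0.97 to 1.68) than after a day (0.18 to 1.01) or 2 days (0.02 to 0.68) of culture. The part of this difference was not tested either. The counts of members that passed the test are given below with and without day 4 replicate 2 and without all replicate 1 arrays.

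Over the whole time course, 33 of the 54 members changed (limma F test, adjusted p under 0.05 and day means at least 1 apart), against 23.6% of all probe sets. By class these were 11 of 24 replication genes, CCNA2, 16 of 18 mitosis genes (17 of 20 with CDC23 and CDC26) and 5 of the 11 others. Without day 4 replicate 2, 34 members changed, and with replicates 2 and 3 only, 35. The shape that most of them shared was a fall within the first day, a low level on day 2, a rise by day 4 and little further difference on day 7. Over all 24 replication genes the lowest day mean was on day 1 for 9, on day 2 for 12, on day 4 for 1 and on day 7 for 2, and over all 18 mitosis genes it was on day 2 for 14 and on day 1 for 2. The 9 replication genes lowest on day 1 were all among the 11 that changed, with POLE2 lowest on day 2 and ORC3 on day 7, whereas 11 of the 13 that did not pass were lowest on day 2. The timing described below for replication genes is therefore that of the genes that passed, not of the class. It also depends on the probe set used. A second probe set had a larger fall on day 2 than on day 1 for CDC45 (-1.26 against -1.17) and PCLAF (-0.70 against -0.61). That of PCLAF was dim, with a mean of 4.14, below the lower quartile of the arrays. For POLE2 the second one had its larger fall on day 1 (-1.78 against -1.62), and the further probe sets of MCM2 were lowest on day 1 too. Genes that did not pass could also differ by probe set. MCM4 and MCM5 were lowest on day 2 on the one used. A second one was lowest on day 1 for MCM4 (-1.55, against -1.04 on day 2) and MCM5 (-0.53 against -0.44). RFC3 was lowest on day 2 on both of its probe sets, and further ones of MCM5 and TYMS stayed flat.

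**Figure D1:**
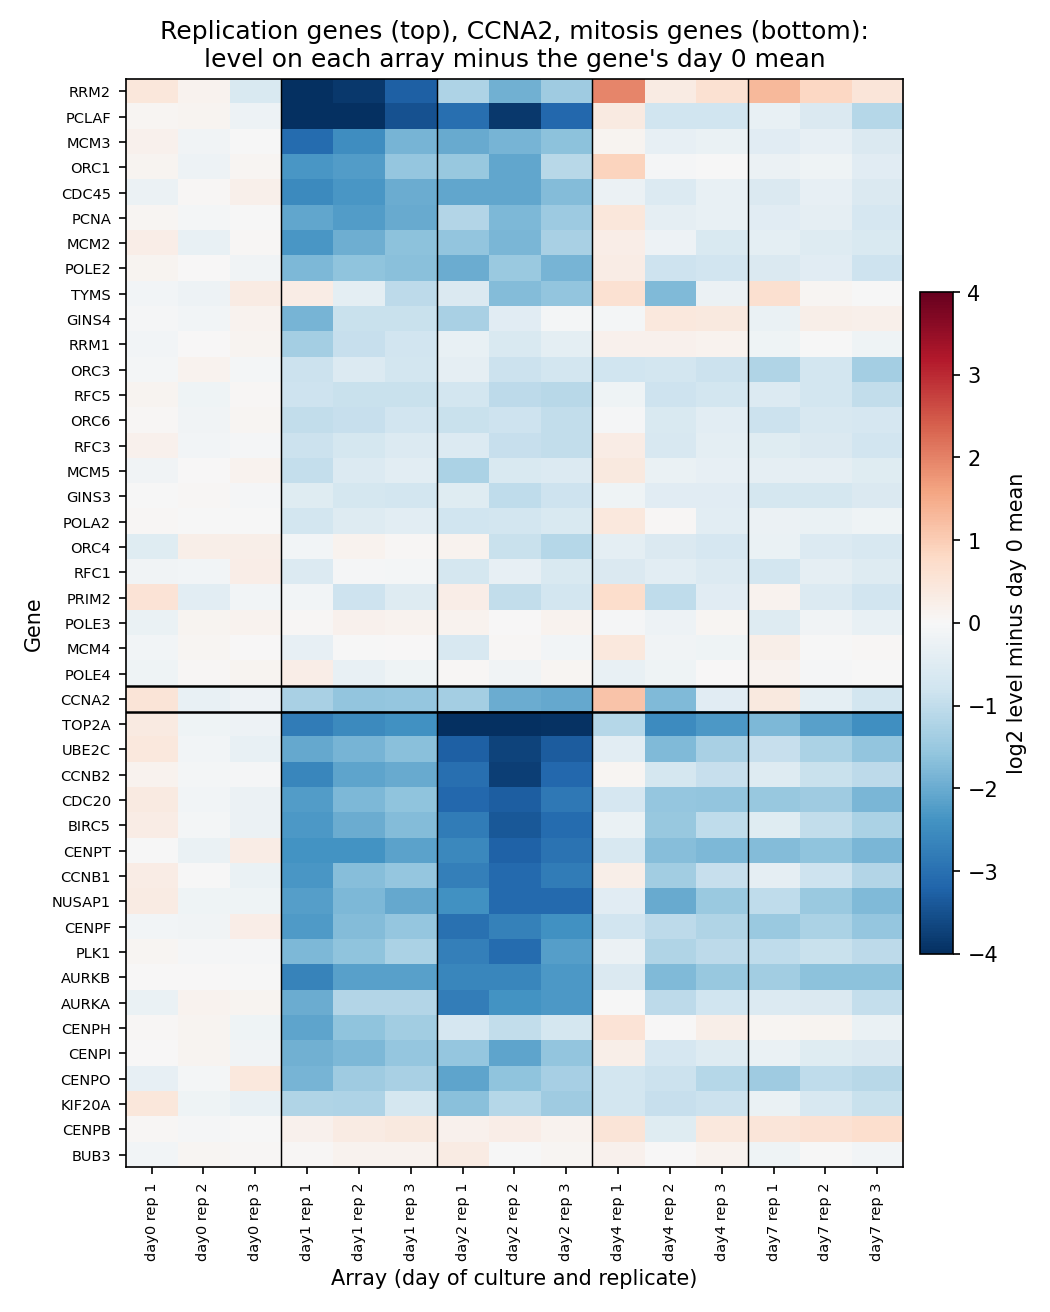
Level of each replication gene (top block, 24 genes), CCNA2 and each mitosis gene (bottom block, 18 genes) on each of the 15 arrays, as the log2 level minus the gene's day 0 mean; blue is below and red above fresh cells, the colour scale ends at -4 and 4, and genes are sorted within a class by the range of their day means. RRM2, PCLAF, MCM3, ORC1, CDC45 and PCNA are darkest on day 1, whereas most mitosis genes are darkest on day 2 and still pale blue on days 4 and 7.

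On day 1 against day 0, 28 of the 54 members fell and 1 rose, whereas 6.03% of all probe sets fell and 6.47% rose. Of the 24 replication genes 10 fell (median change -0.79), and of the 18 mitosis genes 16 fell (median -1.85). The median of all probe sets was -0.0012. Without day 4 replicate 2, 29 members fell and 1 rose, and with replicates 2 and 3 only, 26 fell and 0 rose.

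On day 2 against day 0 the counts were 26 lower and 1 higher, with 6.09% of all probe sets lower and 7.68% higher. Replication genes accounted for 8 of the falls (median -0.82) and mitosis genes for 15 (median -2.69). With replicates 2 and 3 only, 29 members were lower and 1 was higher. Leaving out day 4 replicate 2 gave 27 lower and 1 higher. The replication median was nearly the same on both days, while the mitosis median was lower on day 2.

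Day 2 was also compared with day 1 directly. Here 6 members fell and 1 rose, against 1.00% of all probe sets lower and 2.04% higher. All 6 falls were in mitosis genes (AURKA, CCNB2, PLK1, TOP2A, CDC20 and UBE2C), and the rise was in the replication gene RRM2. Over all 24 replication genes this change was negative for 13 and positive for 11 (median -0.02), and over all 18 mitosis genes it was negative for 15 and positive for 3 (median -0.85). In the subset that passed over the time course it was positive for 10 of 11 replication genes (median 0.58) and negative for 14 of 16 mitosis genes (median -0.94). The signs in this subset are partly set by the choice of genes, because the required range of 1 uses these same day means. RRM1 and GINS4 reached that range only through their low day 1. The 3 arrays of day 2 lay wholly below those of day 1 for 11 of the 18 mitosis genes and 0 of the 24 replication genes, against 9.45% of all probe sets. They lay wholly above for 1 mitosis gene and 3 replication genes, against 11.6% of all probe sets, a share near that of the replication genes. With day 4 replicate 2 left out, 7 members fell and 1 rose. With replicates 2 and 3 only, 10 members fell and 1 rose. The number called was 3 without day 1 replicate 2, and 4 without day 1 replicate 3 or day 2 replicate 2, so this step rests on few arrays. It was also 4 when only the arrays of these days were fitted, where AURKA, CCNB2 and PLK1 lost their calls (limma adjusted p of 0.073 to 0.0883).

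Between days 2 and 4 the direction turned. On day 4 against day 2, 22 members rose and 0 fell, while 2.00% of all probe sets rose and 0.538% fell. The rise took in 8 replication genes (class median 0.67) and 14 mitosis genes (class median 1.62). Without day 4 replicate 2 the count was 23, without day 4 replicate 1 it was 18, and with replicates 2 and 3 only it was 19. It was 15 when only the arrays of these days were fitted, where PCNA, ORC1, POLE2, CENPI, CENPT, AURKB and NUSAP1 lost their calls (limma adjusted p of 0.0506 to 0.145).

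Against fresh cells, 9 members were still lower on day 4 and 1 was higher, beside 6.59% and 9.29% of all probe sets. The 9 were 7 mitosis genes and the kinesins KIF21A and KIF3A, and 0 were replication genes (by limma, 6 replication genes had an unadjusted p under 0.05 and 3 an adjusted p under 0.05, all with changes smaller than 1). Without day 4 replicate 2, 5 members were lower and 2 higher, RRM2 being the second, and with replicates 2 and 3 only 14 were lower and 1 higher. On day 7, 11 members were lower and 1 was higher, beside 7.28% and 9.36% of all probe sets. These were the replication gene ORC3, 8 mitosis genes and the same kinesins, and the counts were equal without day 4 replicate 2 and with replicates 2 and 3 only. Between days 4 and 7, 0 members rose or fell by limma, with 2 at an unadjusted p under 0.05 and a smallest adjusted p of 0.683. Of all probe sets 0.0125% fell and 0.0458% rose over that interval.

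**Figure D2:**
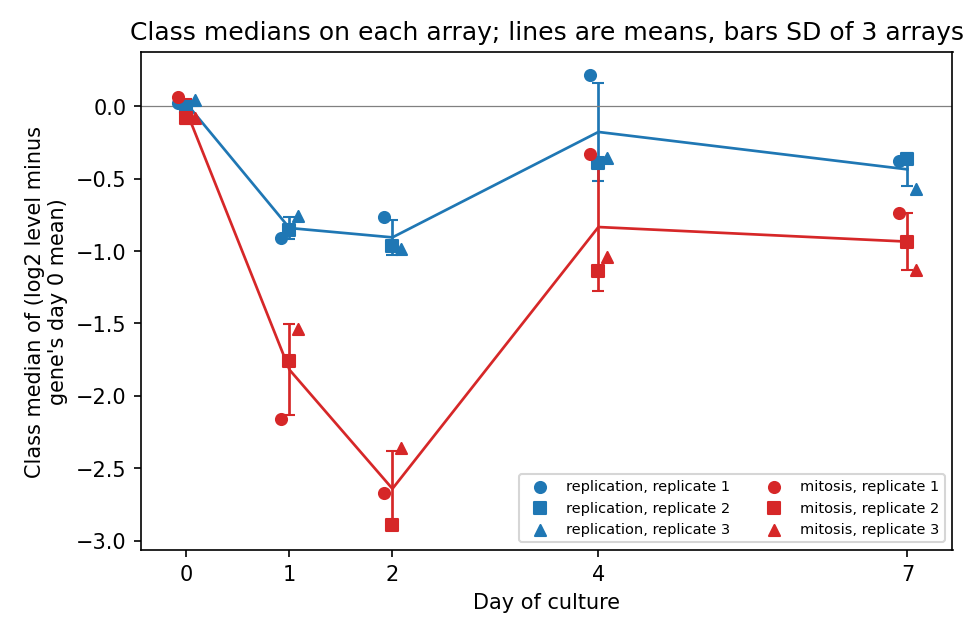
Median over the 24 replication genes (blue) and the 18 mitosis genes (red) of the log2 level minus the gene's day 0 mean, against the day of culture; each point is 1 array, its shape gives the replicate, lines join the day means and bars are the SD of 3 arrays. The mitosis median is below the replication median on every array of days 1, 2, 4 and 7 when arrays of the same day are compared by replicate, with the widest gap on day 2, and replicate 1 is the highest array of both classes on day 4.

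The gap between the classes was taken on each array as the replication median minus the mitosis median. It was 0.05 ± 0.09 on day 0, 0.98 ± 0.24 on day 1, 1.74 ± 0.31 on day 2, 0.66 ± 0.10 on day 4 and 0.50 ± 0.12 on day 7 (mean ± SD, n = 3 arrays). This is a description with no test, since the members of a class are not replicates. It also mixes genes that changed with steady ones, because 13 of the 24 replication genes did not pass the test over the time course and only 2 of the 18 mitosis genes did not. A measure that leaves the steady genes aside is the share of the day 2 fall that was already present on day 1, for genes chosen because they were low on day 2. For the 8 replication genes that were lower on day 2 this share had a median of 128% (range 95.4% to 243%), a value above 100% meaning that the level was lower on day 1 than on day 2. For the 15 mitosis genes it had a median of 67.8% (range 53.8% to 100%). By day 4, a median of 90.0% of the day 2 fall had been regained by those replication genes and 62.4% by those mitosis genes. Both shares use the day 2 level by which the genes were chosen, so they describe these genes and not the classes.

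**Figure D3:**
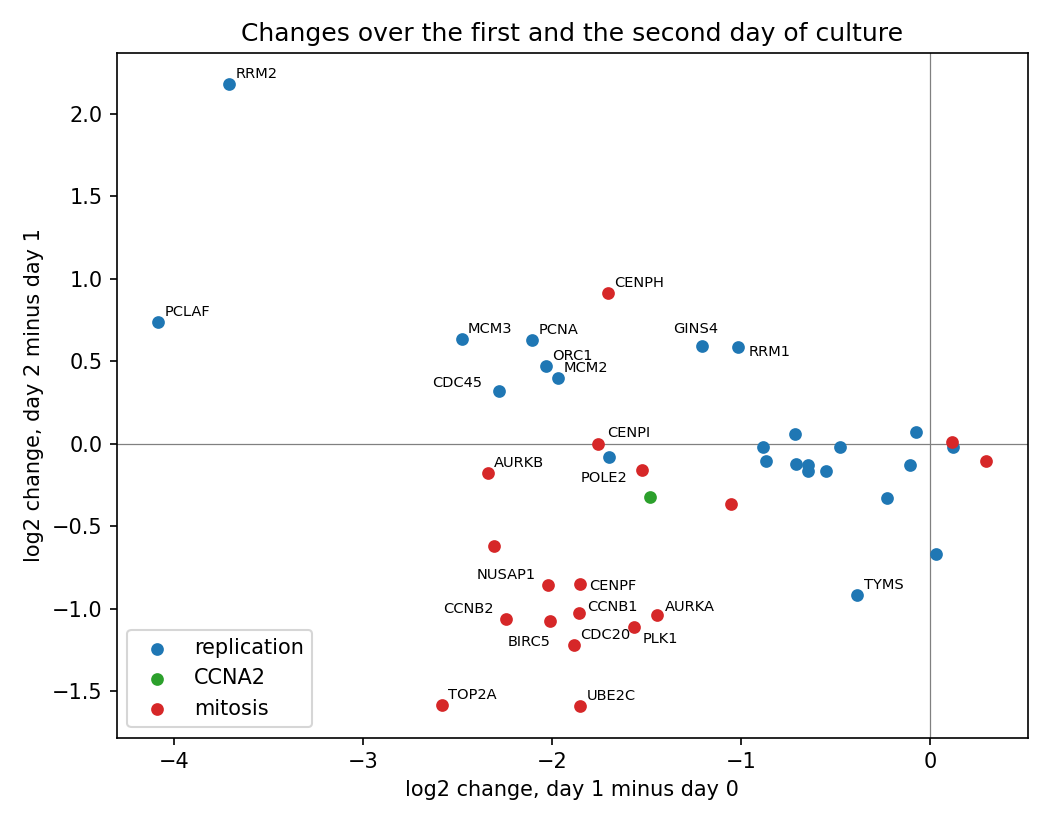
Log2 change from day 0 to day 1 (horizontal) against the change from day 1 to day 2 (vertical) for 24 replication genes (blue), CCNA2 (green) and 18 mitosis genes (red), each point 1 gene and the difference of means of 3 arrays. Both axes share the day 1 mean, so they are not independent; RRM2 at 2.18 lies highest and UBE2C at -1.59 and TOP2A at -1.58 lie lowest, and most mitosis genes below -1 on the horizontal axis are below 0 on the vertical one.

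Origin licensing and the helicase were represented by 11 genes, of which 5 fell on day 1, 4 were lower on day 2 and 4 rose on day 4 against day 2. MCM3, a subunit of the helicase, read 7.81, 7.48 and 7.60 on day 0, 4.55, 5.14 and 5.77 on day 1, 5.62, 5.76 and 5.98 on day 2, 7.73, 7.32 and 7.38 on day 4 and 7.18, 7.30 and 7.05 on day 7. The arrays of days 1 and 2 overlapped and lay below all others, and those of day 4 overlapped with day 0. The change was -2.48 ± 0.24 (adjusted p = 6.49e-06) on day 1 and 1.69 ± 0.24 (adjusted p = 0.00114) from day 2 to day 4, and 0.63 ± 0.24 (adjusted p = 0.165) from day 1 to day 2, which did not pass.

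CDC45, which activates the helicase, read 8.22, 8.52 and 8.65 on day 0, 5.93, 6.15 and 6.47 on day 1, 6.39, 6.39 and 6.73 on day 2, 8.23, 7.91 and 8.17 on day 4 and 7.88, 8.12 and 7.89 on day 7. The days 1 and 2 arrays formed a low group that did not overlap with any other day. It fell by 2.28 ± 0.17 on day 1 (adjusted p = 8.04e-07) and rose by 1.60 ± 0.17 (adjusted p = 0.000155) between days 2 and 4.

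ORC1, the subunit of the origin recognition complex whose amount follows the cell cycle, read 7.88, 7.58 and 7.86 on day 0, 5.44, 5.54 and 6.23 on day 1, 6.27, 5.70 and 6.66 on day 2, 8.65, 7.72 and 7.76 on day 4 and 7.53, 7.61 and 7.32 on day 7. Replicate 1 of day 4 was its highest array of all. The change was -2.03 ± 0.29 (adjusted p = 0.000144) on day 1 and 1.83 ± 0.29 (adjusted p = 0.00222) from day 2 to day 4. Its partners in the complex had smaller changes, and the differences between them were not tested. ORC3 was lower on day 1 by a change of -0.71 ± 0.17 (adjusted p = 0.00791), under the minimum of 1, and reached -1.10 ± 0.17 (adjusted p = 0.000249) on day 7 (-0.97 without day 7 replicate 3). ORC4 differed from day 0 by 0.03 ± 0.28 on day 1 and -0.63 ± 0.28 on day 2, neither past the test, but by -1.02 on day 2 without day 2 replicate 1 (limma adjusted p = 0.004). A dimmer probe set of ORC4, with a mean of 5.21, was at -1.08, -0.96, -1.37 and -1.26 on days 1, 2, 4 and 7. It passed over the time course (limma F test, adjusted p = 0.00999), while the dimmest, with a mean of 2.73, stayed flat. ORC4 can therefore not be called steady from these arrays. ORC6 had changes of -0.88 ± 0.15 and -0.90 ± 0.15 on these days, both with an adjusted p under 0.05 but smaller than 1 in size. A second quantile normalization or cyclic loess moved ORC6 just past 1 on both days, and on day 4 it was at -0.35 ± 0.15 against fresh cells.

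MCM2, another helicase subunit, read 9.26, 8.69 and 9.02 on day 0, 6.68, 7.04 and 7.35 on day 1, 7.40, 7.17 and 7.69 on day 2, 9.24, 8.80 and 8.39 on day 4 and 8.60, 8.47 and 8.38 on day 7. Days 1 and 2 were again the low days, and the day 4 arrays overlapped with day 0. The change was -1.97 ± 0.23 (adjusted p = 3.23e-05) on day 1 and 1.39 ± 0.23 (adjusted p = 0.00348) from day 2 to day 4. A gene can have several probe sets, and these values are from the brightest of 3 for MCM2. With the mean of all 3, MCM2 no longer passed in any of these comparisons, at -0.93 on day 1 and 0.58 from day 2 to day 4.

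MCM5 read 9.11, 9.25 and 9.38 on day 0, 8.28, 8.69 and 8.84 on day 1, 7.97, 8.64 and 8.70 on day 2, 9.64, 8.997 and 8.93 on day 4 and 8.89, 8.89 and 8.77 on day 7. Its change was -0.65 ± 0.23 (adjusted p = 0.0509) on day 1 and -0.81 ± 0.23 (adjusted p = 0.0155) on day 2, neither of which passed. MCM4, of the same ring, read 7.24, 7.43 and 7.38 on day 0, 7.01, 7.34 and 7.37 on day 1, 6.71, 7.40 and 7.23 on day 2, 7.78, 7.20 and 7.17 on day 4 and 7.60, 7.34 and 7.41 on day 7, so its days overlapped throughout, with a change of -0.11 ± 0.20 (adjusted p = 0.782) on day 1. A dimmer probe set of MCM4, with a mean of 5.68, had a change of -1.55 on day 1 and also did not pass over the time course (adjusted p = 0.0727), so the subunits of this helicase cannot be called alike or unlike from these arrays. In the GINS complex the values were -1.21 ± 0.31 (adjusted p = 0.0104) on day 1 for GINS4 and -0.64 ± 0.15 (adjusted p = 0.00474) for GINS3, and only GINS4 passed both limits, though not without day 1 replicate 1 (-0.88).

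The polymerases, the clamp and its loader were 10 genes, of which 3 fell on day 1, 3 were lower on day 2 and 3 rose on day 4 against day 2. PCNA, the clamp, read 10.28, 10.14 and 10.21 on day 0, 8.13, 7.99 and 8.21 on day 1, 9.03, 8.41 and 8.76 on day 2, 10.67, 9.86 and 9.92 on day 4 and 9.74, 9.84 and 9.53 on day 7. The 3 day 1 arrays were the lowest, those of day 2 lay above all of them, and those of day 4 bracketed the day 0 values. The change was -2.10 ± 0.21 (adjusted p = 7.48e-06) on day 1, 0.63 ± 0.21 (adjusted p = 0.103) from day 1 to day 2, which did not pass, and 1.41 ± 0.21 (adjusted p = 0.00139) from day 2 to day 4. On day 4 PCNA differed from day 0 by -0.06, with a 95% interval of -0.51 to 0.39.

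PCLAF, a PCNA-binding factor, had the largest fall of the 54 members on day 1. It read 10.53, 10.57 and 10.24 on day 0, 5.76, 6.36 and 6.97 on day 1, 7.41, 6.59 and 7.29 on day 2, 10.79, 9.66 and 9.66 on day 4 and 10.15, 9.88 and 9.31 on day 7. Levels on days 1 and 2 overlapped with each other and lay below every array of days 0, 4 and 7. The change was -4.08 ± 0.36 (adjusted p = 2.81e-06) on day 1 and -3.35 ± 0.36 (adjusted p = 1.04e-05) on day 2, and 2.94 ± 0.36 (adjusted p = 0.000356) from day 2 to day 4.

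POLE2, a small subunit of the leading-strand polymerase, read 6.79, 6.69 and 6.53 on day 0, 4.87, 5.07 and 4.98 on day 1, 4.68, 5.20 and 4.80 on day 2, 6.96, 5.85 and 5.91 on day 4 and 6.10, 6.23 and 5.85 on day 7. It was low on both early days, which overlapped. The change was -1.70 ± 0.25 (adjusted p = 0.000181) on day 1 and 1.35 ± 0.25 (adjusted p = 0.00621) from day 2 to day 4, but 0.99 without day 4 replicate 1, which is under the minimum of 1. Its fellow subunits POLE3 and POLE4 had changes of 0.12 ± 0.14 and -0.07 ± 0.16 on day 1 and did not pass on any day. The other polymerase and loader genes moved less. RFC3, RFC5 and POLA2 had changes of -0.71 ± 0.21, -0.87 ± 0.18 and -0.55 ± 0.17 on day 1, each with an adjusted p under 0.05 and a size under 1, and cyclic loess moved RFC5 just past 1. On day 2 RFC5 was at -0.98 ± 0.18, and it passed without day 0 replicate 2 (-1.06) or day 2 replicate 1 (-1.09). RFC5 also passed on day 2 under a second quantile normalization (-1.10), a common median (-1.01) or cyclic loess (-1.10). On day 1 RFC1 and PRIM2, the large primase subunit, had -0.23 ± 0.18 and -0.48 ± 0.43.

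Ribonucleotide reductase makes deoxynucleotides and has a large subunit, RRM1, and a small one, RRM2, whose amount limits the enzyme in S phase. RRM2 read 9.24, 8.95 and 8.20 on day 0, 4.82, 4.93 and 5.52 on day 1 and 7.55, 6.88 and 7.38 on day 2. On the later days it read 10.74, 9.13 and 9.41 on day 4 and 10.10, 9.63 and 9.29 on day 7. RRM2 was lowest on day 1, lay above that on every array of day 2, and on day 7 lay above every array of day 0. It changed by -3.71 ± 0.39 (adjusted p = 1.34e-05) on day 1 and then rose by 2.18 ± 0.39 (adjusted p = 0.00538) from day 1 to day 2 and by 2.49 ± 0.39 (adjusted p = 0.00231) from day 2 to day 4. It was the only member to pass both limits as a rise from day 1 to day 2. CENPH, CDC26 and RRM1 had changes of 0.91, 0.72 and 0.58 over that step (limma adjusted p of 0.0144, 0.0326 and 0.0402), under the minimum of 1. On day 4 RRM2 differed from day 0 by 0.96 ± 0.39 (adjusted p = 0.0807), which did not pass, and without day 4 replicate 2 by 1.28 (limma adjusted p = 0.0334), which did.

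RRM1 read 10.38, 10.53 and 10.60 on day 0, 9.13, 9.58 and 9.74 on day 1, 10.21, 9.88 and 10.12 on day 2, 10.68, 10.69 and 10.65 on day 4 and 10.32, 10.49 and 10.32 on day 7. Its lowest arrays were those of day 1, and those of day 2 lay between them and day 0. The change on day 1 was -1.02 ± 0.15 (adjusted p = 0.000258), just past the minimum, and it was -0.84 without day 1 replicate 1 and -0.97 without day 0 replicate 3, both under it. TYMS, thymidylate synthase, read 8.37, 8.26 and 8.80 on day 0, 8.77, 8.08 and 7.44 on day 1, 7.89, 6.74 and 6.90 on day 2, 9.08, 6.70 and 8.25 on day 4 and 9.11, 8.57 and 8.46 on day 7. Replicate 1 was its highest array on every day but day 0, and the arrays of day 2 lay below those of day 0 while days 1 and 4 overlapped with both. The change on day 2 was -1.30 ± 0.51 (adjusted p = 0.0782), which did not pass, and with a replicate block the adjusted p was 0.0175. It passed as well when replicate 1 of day 2 or replicate 1 or 2 of day 4 was left out (adjusted p of 0.0201 to 0.0436).

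**Figure D4:**
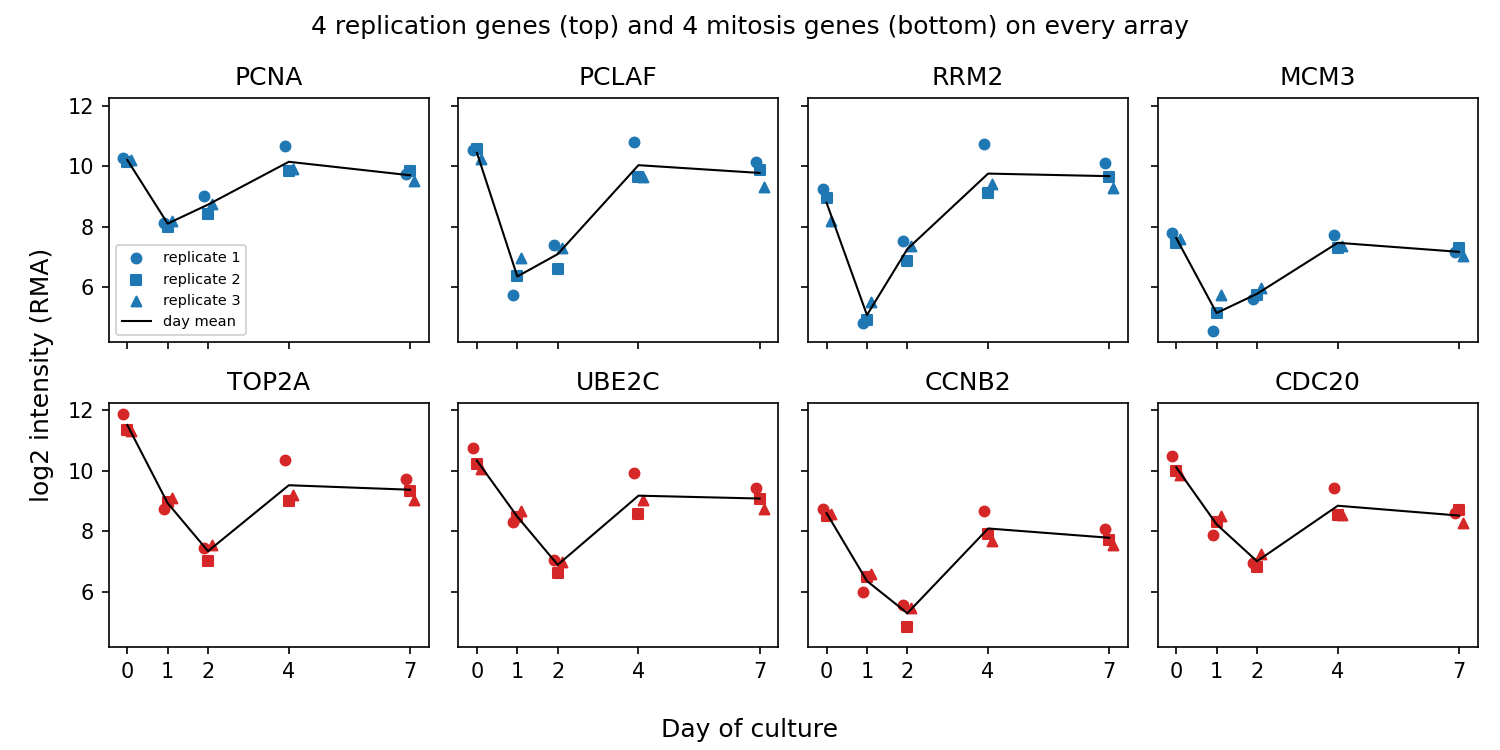
Log2 intensity of 4 replication genes (top row, blue) and 4 mitosis genes (bottom row, red) on all 15 arrays against the day of culture; each point is 1 array, its shape gives the replicate, and black lines join day means. PCNA, PCLAF, RRM2 and MCM3 have their lowest mean on day 1, while TOP2A, UBE2C, CCNB2 and CDC20 have it on day 2.

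CCNA2 encodes cyclin A2, the partner of CDK2 in S phase and of CDK1 at the start of mitosis. It read 7.83, 7.02 and 7.11 on day 0, 6.01, 5.75 and 5.77 on day 1, 5.96, 5.34 and 5.27 on day 2, 8.47, 5.54 and 6.86 on day 4 and 7.71, 6.94 and 6.57 on day 7. Days 1 and 2 lay below day 0 without overlap, but the day 4 arrays were spread from 5.54 to 8.47. The change was -1.48 ± 0.54 (adjusted p = 0.0618) on day 1, which did not pass, and -1.80 ± 0.54 (adjusted p = 0.0239) on day 2, which did. With a replicate block the day 1 fall and the rise from day 2 to day 4 passed too, with adjusted p = 0.00783 and 0.0349 in place of 0.0618 and 0.208. The day 1 fall also passed without day 4 replicate 1 or 2, and the later rise without day 4 replicate 2 (2.14, adjusted p = 0.0172). The day 2 call was lost without day 0 replicate 1, without day 2 replicate 2 or without day 2 replicate 3.

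Entry into mitosis was represented by the B cyclins, which activate CDK1, and by the kinases AURKA and PLK1. All 4 fell on day 1, were lower on day 2 and rose on day 4 against day 2. With the reported settings, 0 of them was called against day 0 on days 4 or 7. CCNB1 read 11.31, 11.02 and 10.75 on day 0, 8.70, 9.32 and 9.49 on day 1, 8.30, 7.91 and 8.24 on day 2, 11.27, 9.65 and 10.11 on day 4 and 10.66, 10.21 and 9.87 on day 7. On each day 2 array it was below every array of day 1, and on day 4 replicate 1 it was back within the day 0 range. The change was -1.86 ± 0.35 (adjusted p = 0.00136) on day 1, -1.02 ± 0.35 (adjusted p = 0.118) from day 1 to day 2, which did not pass, and 2.20 ± 0.35 (adjusted p = 0.00258) from day 2 to day 4. Without day 4 replicate 1 the middle step passed (adjusted p = 0.0281), and so did the difference between days 0 and 4 (-1.15).

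CCNB2 read 8.73, 8.52 and 8.57 on day 0, 5.99, 6.49 and 6.61 on day 1, 5.58, 4.85 and 5.46 on day 2, 8.68, 7.92 and 7.70 on day 4 and 8.10, 7.73 and 7.55 on day 7. It showed the same order of days, with day 2 lowest and no overlap between days 0, 1 and 2. The change was -2.24 ± 0.26 (adjusted p = 3.27e-05) on day 1, -1.06 ± 0.26 (adjusted p = 0.0297) from day 1 to day 2 and 2.80 ± 0.26 (adjusted p = 6.33e-05) from day 2 to day 4. PLK1, a kinase needed for spindle assembly and division, read 8.63, 8.53 and 8.53 on day 0, 6.76, 6.95 and 7.29 on day 1, 5.83, 5.48 and 6.36 on day 2, 8.34, 7.35 and 7.51 on day 4 and 7.54, 7.68 and 7.52 on day 7. Day 2 was again wholly below day 1. The change was -1.56 ± 0.25 (adjusted p = 0.000424) on day 1, -1.11 ± 0.25 (adjusted p = 0.0198) from day 1 to day 2 and 1.84 ± 0.25 (adjusted p = 0.00085) from day 2 to day 4.

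AURKA, the kinase of centrosomes and spindle poles, read 8.64, 9.06 and 9.03 on day 0, 6.94, 7.72 and 7.73 on day 1, 6.14, 6.51 and 6.63 on day 2, 8.89, 7.86 and 8.11 on day 4 and 8.35, 8.32 and 7.95 on day 7. Its day 2 arrays were below all of its day 1 arrays. The change was -1.45 ± 0.27 (adjusted p = 0.00137) on day 1, -1.04 ± 0.27 (adjusted p = 0.0399) from day 1 to day 2 and 1.86 ± 0.27 (adjusted p = 0.00141) from day 2 to day 4. The falls of CCNB2, PLK1 and AURKA from day 1 to day 2 were each lost when replicate 2 or 3 of day 1, or replicate 2 of day 2, was left out (adjusted p of 0.0613 to 0.156). That of CCNB2 was also lost without day 2 replicate 3, and that of AURKA without day 0 replicate 2 or 3, day 2 replicate 1 or 3, day 4 replicate 3 or day 7 replicate 2. With the mean of both AURKA probe sets it was -0.70 (adjusted p = 0.236).

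Chromosome structure, centromere and checkpoint genes were 10, of which 8 fell on day 1, 7 were lower on day 2 and 7 rose on day 4 against day 2. TOP2A, the topoisomerase that untangles sister chromatids, read 11.89, 11.35 and 11.31 on day 0, 8.73, 8.98 and 9.10 on day 1 and 7.45, 7.03 and 7.57 on day 2. Later it read 10.37, 9.0003 and 9.21 on day 4 and 9.73, 9.35 and 9.05 on day 7. Every array of day 2 was below every array of day 1, and no array of days 4 or 7 reached the day 0 range. TOP2A changed by -2.58 ± 0.31 (adjusted p = 3.9e-05) on day 1 and fell further by 1.58 ± 0.31 from day 1 to day 2 (adjusted p = 0.00859). It rose by 2.18 ± 0.31 (adjusted p = 0.00114) from day 2 to day 4 and was still at -1.99 ± 0.31 (adjusted p = 0.000224) against fresh cells on day 4 and -2.14 ± 0.31 (adjusted p = 0.000118) on day 7. On day 2 the difference from day 0 was -4.17, the largest of any member on any day.

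AURKB and BIRC5 (survivin) are partners in the chromosomal passenger complex, which corrects the attachment of chromosomes to the spindle. AURKB read 9.90, 9.89 and 9.88 on day 0, 7.22, 7.72 and 7.72 on day 1, 7.27, 7.27 and 7.58 on day 2, 9.32, 8.13 and 8.38 on day 4 and 8.49, 8.24 and 8.24 on day 7. The low arrays of days 1 and 2 overlapped, unlike those of AURKA. The change was -2.34 ± 0.25 (adjusted p = 1.34e-05) on day 1, -0.18 ± 0.25 from day 1 to day 2 and 1.24 ± 0.25 (adjusted p = 0.0113) from day 2 to day 4. That rise was 0.88 without day 4 replicate 1, and its adjusted p was 0.0574 without day 2 replicate 2, so it was lost in both cases. BIRC5 read 9.90, 9.51 and 9.37 on day 0, 7.29, 7.60 and 7.86 on day 1, 6.81, 6.21 and 6.50 on day 2, 9.34, 8.08 and 8.57 on day 4 and 9.11, 8.61 and 8.34 on day 7. Here day 2 lay wholly below day 1. The change was -2.01 ± 0.30 (adjusted p = 0.000212) on day 1, -1.07 ± 0.30 (adjusted p = 0.0507) from day 1 to day 2, which just missed the threshold, and 2.16 ± 0.30 (adjusted p = 0.000884) from day 2 to day 4. With a replicate block the adjusted p of the middle step of BIRC5 was 0.0149, and it also passed without replicate 1 of day 0, 2, 4 or 7 or without day 4 replicate 2 (0.0184 to 0.05).

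CENPT, which links the centromere to the outer kinetochore, read 7.22, 6.99 and 7.53 on day 0, 4.87, 4.85 and 5.11 on day 1, 4.66, 4.03 and 4.29 on day 2, 6.60, 5.55 and 5.47 on day 4 and 5.51, 5.65 and 5.41 on day 7. Its day 2 mean of 4.32 was below the lower quartile of the arrays, so the difference from day 0 of -2.92 is read as a lower bound of the fall. It rose by 1.55 ± 0.26 (adjusted p = 0.00388) from day 2 to day 4 and on day 7 was still at -1.73 ± 0.26 (adjusted p = 0.000177) against fresh cells. CENPF, a kinetochore protein of G2 and mitosis, changed by -1.85 ± 0.21 (adjusted p = 2.37e-05) on day 1 and -2.70 ± 0.21 (adjusted p = 6.06e-07) on day 2.

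CENPH and CENPI, proteins of the centromere, had their lowest day mean on day 1, CENPI by a margin of 0.0011. CENPF, CENPO and CENPT had theirs on day 2, and CENPB on day 0. CENPH read 8.51, 8.57 and 8.26 on day 0, 6.35, 6.85 and 7.05 on day 1 and 7.78, 7.45 and 7.74 on day 2, so its low arrays were those of day 1 and each day 2 array was above them. On day 1 its change was -1.70 ± 0.20 (adjusted p = 2.82e-05), and on day 4 it was 0.27 ± 0.20 against fresh cells. Its change from day 1 to day 2 was 0.91, under the minimum, and it passed without day 1 replicate 3 (1.06) or day 2 replicate 2 (1.02). From day 2 to day 4 CENPH rose by 1.06 ± 0.20, which was under 1 without day 2 replicate 2 (0.96) or day 4 replicate 1 (0.92). CENPI had changes of -1.75 ± 0.22 on day 1 and -1.75 ± 0.22 on day 2, both of which passed. BUB3, of the spindle checkpoint, and CENPB, which binds centromeric repeats, had changes of 0.12 ± 0.12 and 0.30 ± 0.21 on day 1 and passed on no day.

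The spindle class held NUSAP1, which binds spindle microtubules, and KIF20A, a kinesin of the late spindle and of cytokinesis. NUSAP1 read 11.69, 11.18 and 11.17 on day 0, 9.13, 9.53 and 9.30 on day 1, 8.93, 8.22 and 8.25 on day 2, 10.90, 9.31 and 9.87 on day 4 and 10.33, 9.87 and 9.57 on day 7. The change was -2.02 ± 0.34 (adjusted p = 0.000562) on day 1, -2.88 ± 0.34 (adjusted p = 2.45e-05) on day 2 and -1.32 ± 0.34 (adjusted p = 0.00911) on day 4. Without day 4 replicate 2, its lowest day 4 array, the day 4 difference was -0.96 and under the minimum. Its rise from day 2 to day 4, at 1.56 ± 0.34 (adjusted p = 0.0189), was lost when replicate 2 or 3 of day 2 or replicate 1 of day 4 was left out. KIF20A read 7.53, 6.90 and 6.77 on day 0, 5.86, 5.82 and 6.36 on day 1, 5.40, 5.91 and 5.64 on day 2, 6.33, 6.14 and 6.21 on day 4 and 6.80, 6.43 and 6.17 on day 7. It fell on day 1 by 1.05 ± 0.23 (adjusted p = 0.00341), which was under 1 without replicate 1 of day 0 or replicate 1 or 2 of day 1.

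Mitotic exit runs through the anaphase-promoting complex, which CDC20 activates and for which UBE2C supplies ubiquitin. UBE2C read 10.75, 10.22 and 10.05 on day 0, 8.31, 8.47 and 8.68 on day 1, 7.06, 6.63 and 7.00 on day 2, 9.93, 8.57 and 9.05 on day 4 and 9.43, 9.08 and 8.75 on day 7. Days 0, 1 and 2 stepped down with no overlap. The change was -1.85 ± 0.30 (adjusted p = 0.000438) on day 1, -1.59 ± 0.30 (adjusted p = 0.00714) from day 1 to day 2 and 2.28 ± 0.30 (adjusted p = 0.000629) from day 2 to day 4. A second, dim probe set of UBE2C with a mean of 4.39 stayed flat, and with the mean of both UBE2C no longer passed from day 1 to day 2, on day 4 or on day 7. The UBE2C day 4 difference from fresh cells, -1.16 ± 0.30 (adjusted p = 0.00941), was under 1 without day 0 replicate 1 (-0.95) or day 4 replicate 2 (-0.85), and its adjusted p was 0.0582 when only the arrays compared were fitted.

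CDC20 read 10.48, 10.01 and 9.87 on day 0, 7.88, 8.32 and 8.50 on day 1, 6.97, 6.82 and 7.25 on day 2, 9.44, 8.56 and 8.55 on day 4 and 8.59, 8.70 and 8.28 on day 7. It stepped down in the same way. The change was -1.88 ± 0.25 (adjusted p = 0.000101) on day 1, -1.22 ± 0.25 (adjusted p = 0.0122) from day 1 to day 2 and 1.83 ± 0.25 (adjusted p = 0.000907) from day 2 to day 4. The middle step was lost when replicate 2 or 3 of day 1 or replicate 2 of day 2 was left out (adjusted p of 0.0532 to 0.0637). On day 7 CDC20 was at -1.59 ± 0.25 (adjusted p = 0.000262) against fresh cells. The core subunits of the same complex had smaller changes: CDC23 had -0.46 ± 0.22 on day 2, and CDC26 read 9.86, 9.29 and 9.59 on day 0, 8.79, 8.63 and 8.73 on day 1, 9.68, 9.21 and 9.43 on day 2, 9.72, 9.27 and 9.52 on day 4 and 9.98, 9.59 and 9.63 on day 7. CDC26 was low on day 1 only, at -0.86 ± 0.18 (adjusted p = 0.00296), under the minimum of 1, and at -1.01 without day 0 replicate 2. Under a second quantile normalization it was at -1.002 and under cyclic loess at -1.06.

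**Figure D5:**
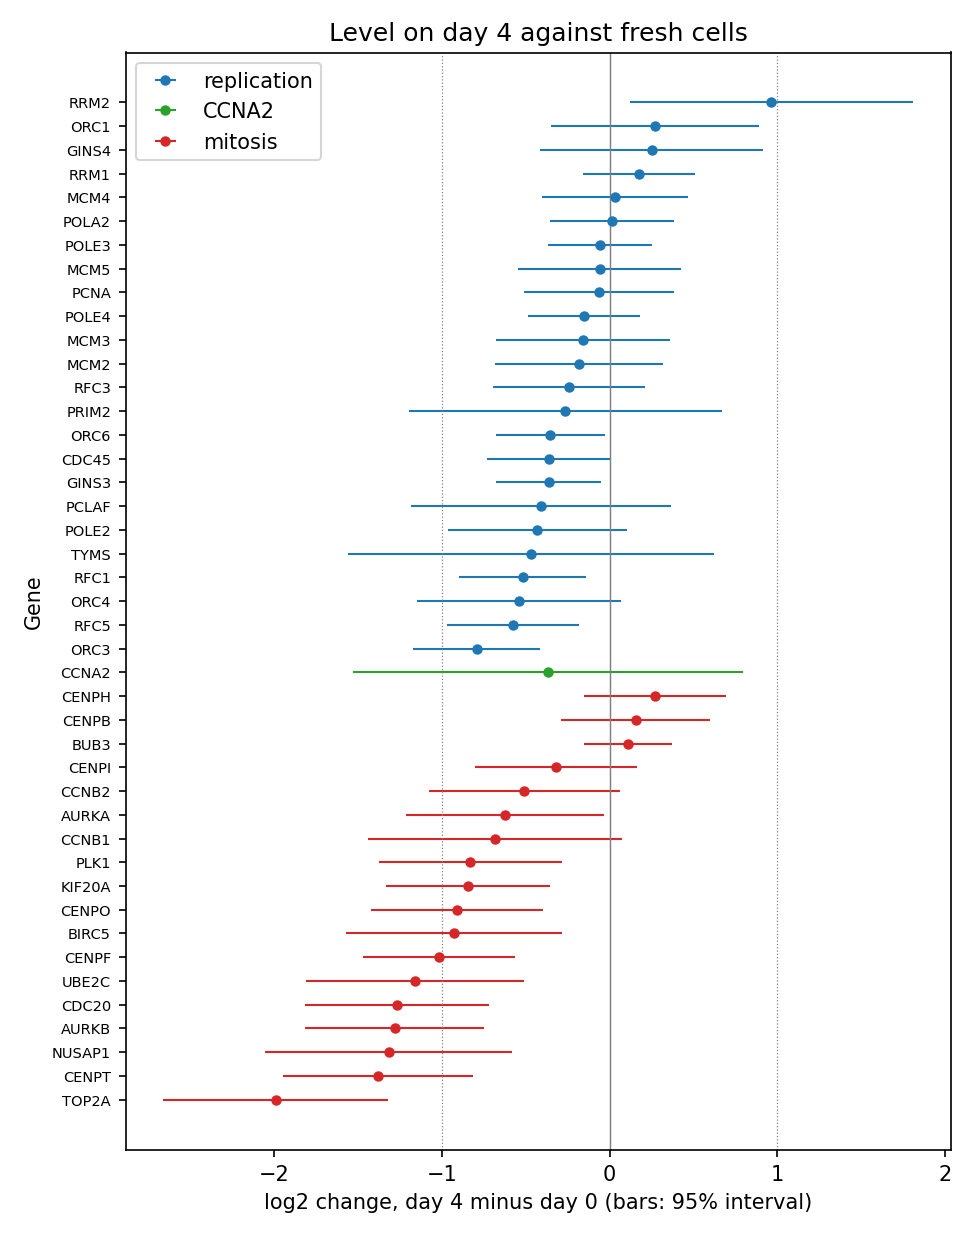
Log2 change from day 0 to day 4 for 24 replication genes (blue), CCNA2 (green) and 18 mitosis genes (red), sorted within class, with 95% intervals from limma (3 arrays on each day); dotted lines mark changes of -1 and 1. Replication genes run from -0.79 (ORC3) to 0.96 (RRM2), and mitosis genes from -1.99 (TOP2A) to 0.27 (CENPH).

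The class medians lay at different levels on days 4 and 7, a description with no test. Against fresh cells the replication median was -0.21 on day 4 and -0.47 on day 7, and the mitosis median was -0.88 and -0.95, while the median of all probe sets was -0.06 and -0.05. AURKB, CDC20, CENPF, CENPT, NUSAP1, TOP2A and UBE2C were lower on both days, and CENPO on day 7 alone. CENPF was at -1.01 ± 0.21 (adjusted p = 0.00206) on day 4 and -1.43 ± 0.21 (adjusted p = 0.000125) on day 7, and its day 4 difference was under 1 without replicate 3 of day 0 (-0.88) or replicate 2 (-0.99) or 3 (-0.91) of day 4. For CENPO the difference was -0.91 ± 0.24 on day 4 and -1.18 ± 0.24 on day 7; it passed on day 4 without day 0 replicate 1 (-1.07) or day 4 replicate 1, and was -0.98 on day 7 without day 0 replicate 3. BIRC5, CCNB1 and PLK1 also passed on day 4 without day 4 replicate 1, at -1.27, -1.15 and -1.13, and BIRC5 also without day 0 replicate 3 (-1.04). With all arrays, BIRC5 passed on day 4 under a second quantile normalization (-1.12) or cyclic loess (-1.04). On day 7, BIRC5 and PLK1 lay close to the minimum, at -0.91 ± 0.30 and -0.98 ± 0.25, and each passed without day 0 replicate 3 or without 1 of the day 7 arrays. Under a second quantile normalization they also passed on day 7, at -1.06 and -1.09, and PLK1 did with a common median (-1.02). A missed threshold does not show a full return, and the 95% interval on day 4 was -1.44 to 0.07 for CCNB1 and -1.18 to 0.37 for PCLAF. The day 4 arrays were uneven. Replicate 1 was the highest of the 3 day 4 arrays for 18 of 18 mitosis genes and 18 of 24 replication genes, a share not counted over all probe sets. Without that array 13 members were lower than on day 0.

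Of the 11 members outside both classes, CDC23 and CDC26 included, 5 changed over time. KIF21A, a kinesin that restrains the growth of microtubules, read 10.23, 10.08 and 9.61 on day 0, 8.78, 8.44 and 8.31 on day 1, 8.20, 7.55 and 7.32 on day 2, 7.59, 7.23 and 7.07 on day 4 and 6.31, 6.64 and 6.73 on day 7. Its mean was lower on each sampled day than on the one before. Its change was -1.47 ± 0.24 (adjusted p = 0.000457) on day 1 and -3.41 ± 0.24 (adjusted p = 1.35e-07) on day 7. KIF3A, a motor of transport in cilia, read 9.63, 9.35 and 8.94 on day 0, 8.01, 7.35 and 7.33 on day 1, 8.97, 7.75 and 7.73 on day 2, 8.77, 7.84 and 8.08 on day 4 and 8.63, 8.08 and 8.05 on day 7. It fell by 1.74 ± 0.35 on day 1 (adjusted p = 0.0019) and was at -1.05 ± 0.35 (adjusted p = 0.0322) on day 7. The day 7 call of KIF3A was lost without day 0 replicate 1 or 2, or day 7 replicate 2 or 3, and its day 2 and day 4 calls were likewise lost without either of those day 0 arrays or without replicate 2 or 3 of the day itself. With the mean of its probe sets KIF3A was at -0.89, -0.79 and -0.73 on days 2, 4 and 7, and did not pass.

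CDC34, a ubiquitin-conjugating enzyme of the SCF ligases, was the only member that passed as higher than in fresh cells on the probe sets used. It read 8.74, 8.79 and 8.75 on day 0, 10.19, 9.53 and 9.70 on day 1, 9.73, 9.73 and 9.93 on day 2, 10.22, 10.14 and 10.14 on day 4 and 10.34, 10.29 and 10.39 on day 7. Every cultured array was above every fresh one. The change was 1.05 ± 0.15 (adjusted p = 0.000171) on day 1 and 1.58 ± 0.15 (adjusted p = 2.4e-06) on day 7. The day 1 call of CDC34 was lost without day 1 replicate 1 (0.85), and its day 2 call without day 2 replicate 3 (0.97). Under cyclic loess the day 1 change was 0.83 and under a second quantile normalization 0.94, so both fell under the minimum of 1. The day 2 change fell under it too, at 0.80 under cyclic loess, 0.90 under a second quantile normalization and 0.998 with a common median. KIF5C, a neuronal kinesin, read 5.16, 5.60 and 5.25 on day 0, 6.25, 6.46 and 6.19 on day 1, 5.40, 5.59 and 5.41 on day 2, 5.31, 5.88 and 5.13 on day 4 and 5.23, 5.36 and 5.19 on day 7. It was high on day 1 only, at 0.96 ± 0.18 (adjusted p = 0.0014), under the minimum of 1, and passed without day 0 replicate 2 (1.10) or day 1 replicate 3 (1.02). KIF5C also passed on day 1 under a second quantile normalization (1.02) or cyclic loess (1.04). CDC42, CDC37, CDC123, CDC23, KIF2A and KIF5B did not pass over the time course, with day 7 changes from -0.02 to 0.96. The 0.96 was that of CDC42 (limma adjusted p = 0.000623), which passed on day 7 without day 0 replicate 2 (1.06). A second bright probe set of CDC42, with a mean of 9.89, was at 1.06 on day 4 and 1.05 on day 7. It passed over the time course (limma F test, adjusted p = 0.00461), and a dim one did not. KIF2A had changes of 0.68 on day 1 and 0.58 on day 2 (limma adjusted p of 0.00369 and 0.00942), under the minimum of 1.

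Other genes of the same processes, outside the name rule, were measured too. Of 34 further replication and S-phase genes listed, 17 were measured, and 8 of these fell on day 1, 4 were lower on day 2 and 3 rose on day 4 against day 2. Over all 17 the lowest day mean was on day 1 for 9 and on day 2 for 6, and among the 8 that changed over time it was on day 1 for 7. Of 46 further mitosis genes 26 were measured, and 20 fell on day 1, 21 were lower on day 2, 3 fell from day 1 to day 2 and 15 rose on day 4 against day 2. In the same 4 comparisons the shares over all probe sets were 6.03%, 6.09%, 1.00% and 2.00%. Over all 26 the lowest day mean was on day 2 for 21 and on day 1 for 4. Among the 21 that changed over time the lowest day was day 2 for 18 and day 1 for 3 (MELK, CKS2 and FOXM1, named after their values were seen).

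CLSPN and CHEK1, which guard stalled replication forks, changed by -2.02 ± 0.28 and -1.96 ± 0.28 on day 1, and RPA3, of the single-strand binding protein, by -1.90 ± 0.24. MYBL2, a transcription factor that acts on both S-phase and mitotic genes, was the only one of those 8 changed replication genes with its lowest mean on day 2. It read 10.27, 9.95 and 9.88 on day 0, 8.47, 8.91 and 9.51 on day 1, 8.23, 8.65 and 9.07 on day 2, 10.92, 10.19 and 10.24 on day 4 and 10.73, 10.33 and 10.33 on day 7, with a change of -1.38 ± 0.28 (adjusted p = 0.00215) on day 2. With the mean of its probe sets that change of MYBL2 was -0.97, under the minimum. NEK2, a centrosomal kinase of mitosis, read 9.52, 9.24 and 9.37 on day 0, 7.08, 7.55 and 7.52 on day 1, 5.63, 5.56 and 6.05 on day 2, 8.19, 7.23 and 7.27 on day 4 and 7.37, 7.54 and 7.25 on day 7. NEK2 fell by 1.99 ± 0.24 on day 1 and by a further 1.64 ± 0.24 from day 1 to day 2 (adjusted p = 0.00128), and on day 7 was at -1.99 ± 0.24 (adjusted p = 1.92e-05) against fresh cells. With the mean of its probe sets the second fall of NEK2 was -0.76 and did not pass. CEP55 of cytokinesis, HMMR and TACC3 of the spindle changed by -3.19 ± 0.36, -3.17 ± 0.66 and -3.15 ± 0.29 on day 2.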

How the data were processed

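The authors deposited 1 log2 intensity per probe set and array, which came from RMA (robust multi-array average) per the submitters' processing notes, with a version not given in the sources used here. RMA compresses the changes of dim probe sets. Of 24123 probe sets, 124 controls were left out. The array annotation named the genes, and the probe set with the highest mean stood for a gene; 15 members had several, and on day 2 the probe sets of 8 of these had the same sign and call. All 54 symbols were found in the RefSeq gene table. Array pairs numbered 105, and none was identical. No genome was used, so no positions or sequences are given.

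A linear model with day as a factor was fitted over the 15 arrays (limma 3.58.1, R 4.3.3, empirical Bayes). On simulated data for day 1 against day 0, 5.97% of added changes of 0.75, 74.6% of 1.5 and 98.5% of 3 were recovered with 4 false calls. Recovery needed the same minimum change of 1, so an added 0.75 could pass only where noise raised it. Deviations of same-numbered replicates correlated above 0.1 for every pair in 6 comparisons, but not in day 1 against day 0 (0.0609 to 0.333), and the labels state no pairing, so the replicate block is an alternative. The others were second quantile normalization, cyclic loess, a common median, a filter on the dimmest 40% of probe sets (50 members left), trend and robust eBayes, no minimum change, only the arrays compared, the mean of a gene's probe sets, replicates 2 and 3 only, and leaving out each array. The members, their classes and lists, the named genes (fixed names and the 3 most variable changed members of each class list) and these settings were chosen with earlier results of these data known.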

Additional observations from a re-analysis of the deposited data

How the results depend on the processing

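Counts of members past the test kept within 1.5 times the reported count in every comparison with day 0, from day 2 to day 4 and over the time course under each alternative, except with no minimum change, where 19 passed on day 4 against day 0 (10 reported) and 24 on day 7 against day 0 (12 reported). From day 1 to day 2, where 7 were reported, 12 passed with no minimum change, 11 with replicates 2 and 3 only and 4 with only the arrays compared, and 3 to 9 when 1 array was left out. With the replicate block 30 members passed on day 1 against day 0 in place of 29, 8 in place of 7 from day 1 to day 2, and the block changed no count by over 1.5 times. The paired values of CCNA2, BIRC5 and TYMS are given above, the block added calls for HMMR on day 4 and day 7 against day 0 and from day 2 to day 4 (adjusted p = 0.0247, 0.0164 and 0.0177, with no block 0.152, 0.122 and 0.171), and it changed no other call of a gene shown.

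The gap between the class medians (replication minus mitosis) on day 1 against day 0 was 1.06, 0.75 with replicates 2 and 3 only, and 0.87 to 1.15 with 1 array left out. On day 7 against day 0 it was 0.47, and 0.43 to 0.58 with 1 array left out. From day 4 to day 7 it was -0.10, and -0.24 to 0.071 with 1 array left out: 0.0712 without day 4 replicate 2 and 0.016 without day 7 replicate 1, so it has no settled sign. The cause was not tested. Of 10808 values under an alternative, for the 54 members and 8 further genes, 109 lost a call, 144 gained one and 0 reversed.

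The 3 arrays on each day limit precision, and 74.6% of added changes of 1.5 were recovered in simulated data. A change under 1 in size cannot pass, whatever its p. A member that did not pass may therefore still differ. Genes near the lower quartile of the arrays give a lower bound of a fall. No protein, DNA content or cell count bears on these transcript levels, and 17 of 34 further replication genes and 26 of 46 further mitosis genes were measured.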

Other observations

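The order of the 3 arrays within a day was shared by many members. The share over all probe sets was not counted, so this order cannot be called particular to the members. On day 1 the highest array was replicate 3 for 17 of 18 mitosis genes and 13 of 24 replication genes, and replicate 1 for 0 mitosis genes. On day 4 it was replicate 1 for 18 mitosis genes and 18 replication genes, and on day 7 replicate 1 for 10 and 11 and replicate 3 for 1 and 2. Day 4 replicate 1 had the lowest 3′ minus 5′ difference of the dap control probe sets, 1.01, and day 4 replicate 2 the highest, 3.52. Whether the cultures differed in how far they had returned to division was not tested.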
